A study of Solanum lycopersicum with 18 samples.

Results

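Of the 33976 tomato genes in the deposited tables, 465 had a lower level in seeds primed with methyl jasmonate (MeJA) than in mock-primed seeds of both the Criollo and the Micro-Tom genotype. They were chosen from the levels in TPM (transcripts scaled for their length and to the same total in each library). A member had a mock mean of at least 2 TPM in both genotypes, a MeJA mean of at most 0.67 of the mock mean in both, and no MeJA replicate reaching the lowest mock replicate in either. The seeds were mature seeds of Criollo, Stupicke and Micro-Tom. They were osmoprimed in the dark for 48 h in polyethylene glycol at -1 MPa with 2 mM MeJA or, for the mock controls, without MeJA. They were then washed and dried again for 48 h. RNA was sequenced from 3 biological replicates of 30 whole seeds per group, so that embryo, endosperm and seed coat were mixed in each of the 18 libraries. In such bulk samples, fewer cells of a type and less RNA per cell cannot be told apart. The levels in Criollo and Micro-Tom chose the members and are given as a description without a test. The 6 Stupicke libraries took no part in the choice, and only there was the effect of MeJA tested.

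MeJA is the methyl ester of jasmonic acid, a plant hormone whose signalling removes repressors of defence genes and, in vegetative tissues of Arabidopsis, slows cell division and growth. During imbibition, which priming starts and then interrupts, seed cells resume transcription, prepare for DNA replication and begin to remodel their walls, and gibberellin promotes the progress towards germination. Genes for replication, the cell cycle, wall polymers and gibberellin-regulated peptides are among those described below. How far the seeds had advanced was not tested.

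The libraries held 18807931 to 20560389 estimated counts. Seed transcripts were abundant in every library: the summed level of 5 genes annotated as oleosins, the coat proteins of seed oil bodies, was between 3220 and 14600 TPM, whereas 2 genes annotated as chlorophyll a-b binding proteins summed to 1.42 to 8.36 TPM. Correlations of log-scale levels between replicates were 0.944 to 0.996, the lowest being those of Micro-Tom mock replicate 3. Stupicke mock replicate 3 correlated with the other replicates of its group at 0.985 and 0.988 over all genes, but it stood apart in the 465 members, as set out below. The main counts over all members in Stupicke are therefore given with and without it. Values of single genes and lists are given without it only in part, and a value given once is for all libraries.

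The members had a median MeJA/mock ratio of 0.496 in Criollo and 0.485 in Micro-Tom. The lowest ratio was 0.106 in Criollo and 0.0625 in Micro-Tom, and both upper ends, at 0.669, were set by the rule. Just inside the threshold, Solyc05g007490.3.1 had ratios of 0.6003 in Criollo and 0.6689 in Micro-Tom. Just outside it, Solyc06g068240.3.1, annotated as a pyrophosphate-energised proton pump of the vacuolar membrane, had ratios of 0.671 and 0.6029, so that the edge of the group separated genes with nearly equal values. The rule was met by 1311 genes (3.86%) in Criollo, 1159 (3.41%) in Micro-Tom and 206 (0.606%) in Stupicke. Over all genes with a mock mean of at least 2 TPM, the median log2 ratio of the TPM means was -0.14 in Criollo, 0.05 in Micro-Tom and -0.03 in Stupicke.

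The members lay at a lower level in Stupicke before any MeJA was given. The median of their mock means was 9.44 TPM in Criollo, 11.6 TPM in Micro-Tom and 3.18 TPM in Stupicke. The Stupicke mock mean was below both other mock means for 449 members (96.6%), against 45.2% of all genes tested, although the rule favoured genes that were high in the other mock groups. For 299 members (64.3%) the Stupicke mock mean was also below the MeJA means of both other genotypes. The share of all genes for which this held was not computed, so that this count is not read as a trait of the members. With MeJA the medians were 4.34 TPM in Criollo, 5.21 TPM in Micro-Tom and 2.49 TPM in Stupicke.

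In some groups the level of the members also differed between replicates. In the 3 Criollo mock libraries the median member level was 8.69, 10.5 and 8.16 TPM, and in Criollo MeJA it was 4.20, 3.54 and 5.30 TPM. In Micro-Tom it was 10.6, 11.7 and 10.9 TPM in mock and 5.10, 6.12 and 4.43 TPM in MeJA. In Stupicke it was 4.35, 3.74 and 1.37 TPM in mock and 3.17, 2.20 and 1.78 TPM in MeJA. The Stupicke groups overlapped because mock replicate 3 was below all 3 MeJA libraries. That library was the lowest of the 6 Stupicke libraries for 296 members (63.7%), against 34.1% of all genes tested. Within the Stupicke mock group alone it was the lowest for 435 members (93.5%), against 55.8% of all genes tested. Among the Criollo MeJA libraries, replicate 2 was the lowest for 359 members (77.2%), against 48.1% of all genes tested. The Micro-Tom mock libraries were less uneven, with replicate 3 the lowest for 219 members (47.1%), against 70.4% of all genes tested. The rule required every mock replicate of Criollo and Micro-Tom to lie above every MeJA replicate. The shares in these 2 genotypes were thus partly set by the choice of the members and are a description only.

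**Figure D1:**
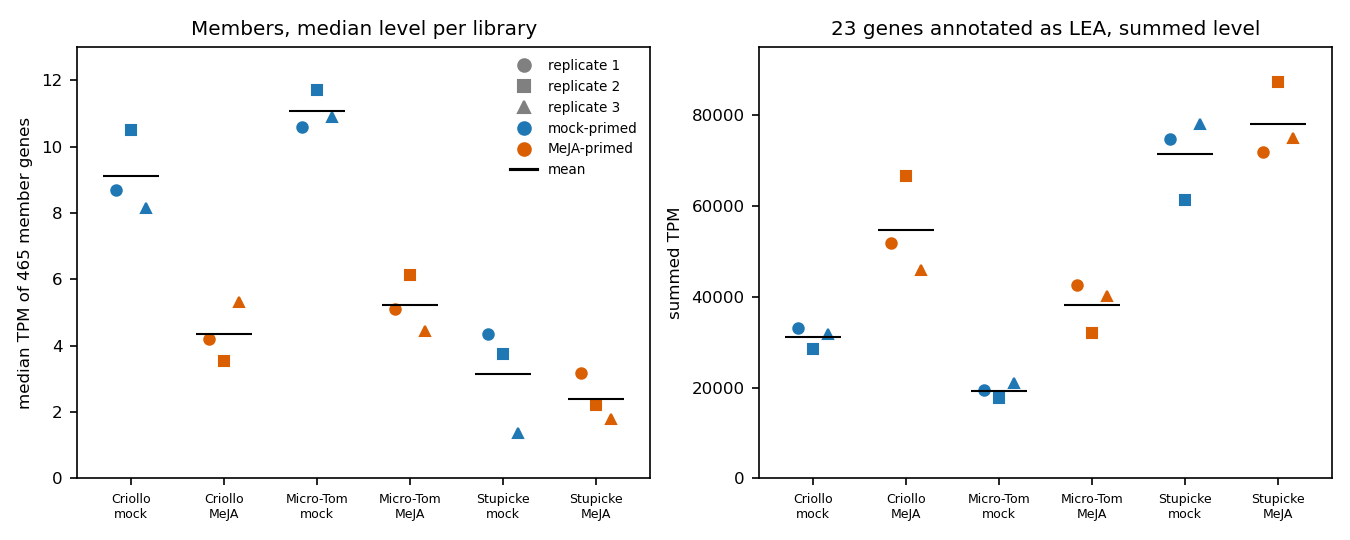
Left, the median level in TPM of the 465 members in each of the 18 libraries; right, the summed level of 23 genes annotated as late embryogenesis abundant (LEA). Symbols give the replicate, colours the priming and lines the group mean; Stupicke mock replicate 3, at 1.37 TPM, is the lowest of all libraries for the members.

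In Criollo and Micro-Tom, but not in Stupicke, several groups of seed maturation transcripts went the other way. The 23 genes annotated as LEA proteins, which protect dry seed cells, are transcripts that mature seeds hold in large amounts, and 1 of them was a member. Their summed level was 28500 to 33000 TPM in Criollo mock and 45800 to 66600 TPM in Criollo MeJA. It was 17600 to 21000 TPM in Micro-Tom mock and 32100 to 42600 TPM in Micro-Tom MeJA. In both genotypes the groups were apart, with MeJA higher. Annotations were at hand only for genes named in the study's tables of MeJA effects or exudate proteins. The LEA, oleosin and storage protein genes summed here were thus partly selected on these libraries, and the separation is a description only. In Stupicke the sum was 74800, 61300 and 78100 TPM in mock and 71800, 87200 and 75000 TPM in MeJA, so that the groups overlapped and every Stupicke library but mock replicate 2 was above all Criollo and Micro-Tom libraries. The oleosin sum was 3220 to 3900 TPM in Criollo mock, 4750 to 7930 TPM in Criollo MeJA, 5850 to 6910 TPM in Micro-Tom mock and 9630 to 14600 TPM in Micro-Tom MeJA. In Stupicke it was 10300 to 13300 TPM in mock and 10500 to 12800 TPM in MeJA. The storage proteins are given as mock, then MeJA. For 3 vicilin or 7S globulin genes the sum was 1400 to 2020 and 2660 to 5320 TPM in Criollo. It was 2000 to 5210 and 8830 to 13000 TPM in Micro-Tom, and 18300 to 19100 and 15400 to 20600 TPM in Stupicke. The 1 legumin or 11S globulin gene had 3.09 to 3.22 and 5.21 to 6.76 TPM in Criollo. Its groups overlapped in Micro-Tom, at 27.5 to 165 and 150 to 322 TPM. They also overlapped in Stupicke, at 41.8 to 148 and 58.9 to 125 TPM. The part of these transcripts in the levels of the members was not tested. The 4 genes annotated as endo-beta-mannanases, which degrade endosperm walls at germination, summed to 66.1 to 117 TPM across the 18 libraries.

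In Stupicke, 463 of the members passed the filter on low counts and were tested by edgeR's quasi-likelihood test with Benjamini-Hochberg adjustment over all 19914 genes tested. Of these, 3 members (0.648%) were called lower at an adjusted p under 0.05, against 0.11% of all genes tested. Called higher were 0 members, against 289 of all 19914 genes tested. At an unadjusted p under 0.05, 53 members (11.4%) were lower and 0 higher, against 1.99% of all genes tested lower, and DESeq2 called 6 of 461 members (1.3%) lower, against 0.215% of all genes it tested. The fold change was negative for 376 members (81.2%), against 52.4% of all genes tested. The median log2 fold change of the members was -0.30, and that of all genes tested was -0.01. Thus, with all libraries kept, most members were slightly lower with MeJA in Stupicke, and few of them passed the test after adjustment.

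Leaving out Stupicke mock replicate 3 changed these counts. Without it, 19 members (4.1%) were called lower, against 0.222% of all genes tested, and 0 were called higher, against 181 of 20278 genes tested. The fold change was then negative for 425 members (91.8%), against 49.1%, and the median was -0.62 against 0.00 for all genes tested. At an unadjusted p under 0.05, 177 members (38.2%) were lower, against 3.56%. Leaving out Stupicke mock replicate 1 acted in the opposite direction, with a median of -0.04 against 0.00 for all genes tested and 254 negative members (54.9%) against 50.9%, both near the background. Without Stupicke MeJA replicate 1 the median was -0.51, with 7 members (1.51%) called lower, against 0.0986% of all genes tested. Without mock replicate 2 or MeJA replicate 3 the median was -0.19 or -0.17. In each of these fits 2 members (0.432%) were called lower, against 0.0395% and 0.0494% of all genes tested. The size of the difference in Stupicke therefore depended on single libraries.

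**Figure D2:**
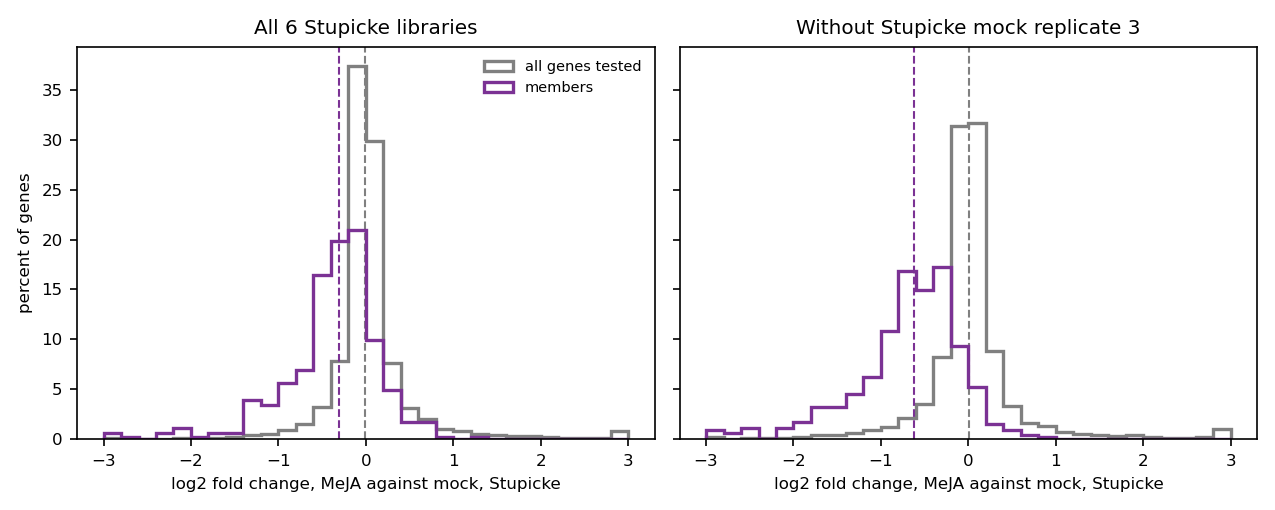
Percent of genes by log2 fold change (MeJA against mock, edgeR) in Stupicke, in bins of 0.2 with values beyond -3 and 3 placed in the end bins, for the members and for all genes tested; dashed lines are medians. With all 6 libraries the member median is -0.30 and without Stupicke mock replicate 3 it is -0.62, while that of all genes tested stays near 0.

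Applied to the Stupicke libraries themselves, the rule was met by 12 members (2.58%), against 0.79% of the genes with a mock mean of at least 2 TPM in Criollo and Micro-Tom. A mock mean of at least 2 TPM was reached in Stupicke by 310 members. The MeJA replicates were all below the mock replicates for 20 members (4.3%), against 6.66% of all genes tested. Without mock replicate 3, the rule was met by 159 members (34.2%), against 2.98% of the genes with a mock mean of at least 2 TPM in Criollo and Micro-Tom. The replicates then did not overlap for 253 members (54.4%), against 20.6% of all genes tested. The median MeJA/mock ratio in Stupicke was 0.79 with all libraries and 0.63 without that library.

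The clearest member in Stupicke was Solyc08g076250.3.1, which the source tables annotate only as a cytochrome. Its level was 22.4, 22.1 and 23.3 TPM in the Stupicke mock libraries and 12.2, 10.0 and 10.5 TPM in the MeJA libraries. The groups were far apart, with means of 22.6 ± 0.61 and 10.9 ± 1.2 TPM (SD, n = 3). The log2 fold change was -1.06 (SE 0.13) with an adjusted p of 1.1e-04 by edgeR, and it was called under all 29 alternatives. In Criollo the same gene had 34.2, 33.1 and 35.6 TPM in mock and 19.9, 18.9 and 21.6 TPM in MeJA. In Micro-Tom it had 22.0, 16.7 and 10.8 TPM in mock and 7.83, 7.83 and 8.96 TPM in MeJA. Unlike most members, it did not have its lowest Stupicke mock value in replicate 3.

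Solyc09g010360.3.1 is annotated as a WAT1-related protein, a family named after an Arabidopsis vacuolar auxin transporter needed for secondary wall thickening. It had 2.96, 4.47 and 3.47 TPM in Stupicke mock and 1.63, 1.52 and 1.86 TPM in Stupicke MeJA. The log2 fold change was -1.12 (SE 0.19) with an adjusted p of 0.0035 by edgeR, and all 29 alternatives kept the call. The level was 4.17, 4.22 and 3.44 TPM in Criollo mock, 2.36, 1.52 and 2.38 TPM in Criollo MeJA, 8.92, 8.58 and 6.28 TPM in Micro-Tom mock and 4.37, 5.73 and 3.96 TPM in Micro-Tom MeJA. The third called member, Solyc04g064610.3.1, encodes a bidirectional sugar transporter of the SWEET family, whose proteins let sugars pass membranes along their gradient. It had 2.52, 3.86 and 2.68 TPM in Stupicke mock and 1.51, 0.448 and 1.14 TPM in Stupicke MeJA. Its log2 fold change was -1.55 (SE 0.37) with an adjusted p of 0.05 by edgeR, at the threshold, and the call was lost in 20 of the 29 alternatives although the direction was kept in each. In Criollo it had 5.90, 7.00 and 5.25 TPM in mock and 1.89, 1.66 and 2.56 TPM in MeJA, and in Micro-Tom 7.93, 9.61 and 7.23 TPM in mock and 2.22, 1.32 and 3.22 TPM in MeJA. In Stupicke, which the rule did not use, all 3 called members had every MeJA library below every mock library.

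The other 9 members that met the rule in Stupicke were not called there. One of them, Solyc02g092820.4.1, is annotated as an IAA-amido synthetase, an enzyme that conjugates auxin with amino acids, and was picked for mention after its values were seen. It had 13.8, 20.9 and 17.6 TPM in Stupicke mock and 10.6, 9.29 and 13.3 TPM in Stupicke MeJA, with adjacent replicates of the groups close to each other. Its Criollo ratio was 0.58 and its Micro-Tom ratio 0.38. Another, Solyc06g073040.1.1, without an annotation here, was listed at 0 in all 3 Stupicke MeJA libraries against 8 counts in total in the mock libraries, which is near the limit of detection.

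Gibberellin-regulated proteins are small cysteine-rich peptides, and 3 of the 8 annotated genes in the list of gibberellin and brassinosteroid genes were members. Their MeJA/mock ratios were 0.171 to 0.539 in Criollo, 0.233 to 0.384 in Micro-Tom and 0.431 to 0.624 in Stupicke. In Stupicke, edgeR and DESeq2 each called 0 of the 8 listed genes lower and 1 higher, and 1 was lower at an unadjusted p under 0.05. The most abundant in Criollo, Solyc03g116060.4.1 (gibberellin-regulated protein 6), had 75.8, 115 and 89.3 TPM in Criollo mock and 16.8, 10.3 and 20.8 TPM in Criollo MeJA. It had 128, 121 and 130 TPM in Micro-Tom mock and 26.0, 42.7 and 19.6 TPM in Micro-Tom MeJA. It had 45.5, 33.9 and 4.23 TPM in Stupicke mock and 20.3, 11.2 and 4.53 TPM in Stupicke MeJA. The first pair of Stupicke mock libraries was above all Stupicke MeJA libraries, and mock replicate 3 was below them all. The Stupicke log2 fold change was -1.23 (SE 0.59) with an adjusted p of 0.72 by edgeR, and -1.73 with an adjusted p of 0.087 without mock replicate 3. Solyc06g069790.4.1 had a Stupicke log2 fold change of -0.72 (SE 0.54) and an adjusted p of 1.0 by edgeR. Solyc04g017720.3.1 differed from both in that its Stupicke groups did not overlap, with 12.3, 11 and 8.66 TPM in mock and 8.39, 2.91 and 5.50 TPM in MeJA. Its log2 fold change was -0.99 (SE 0.35) and did not pass the test at an adjusted p of 0.30 by edgeR.

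**Figure D3:**
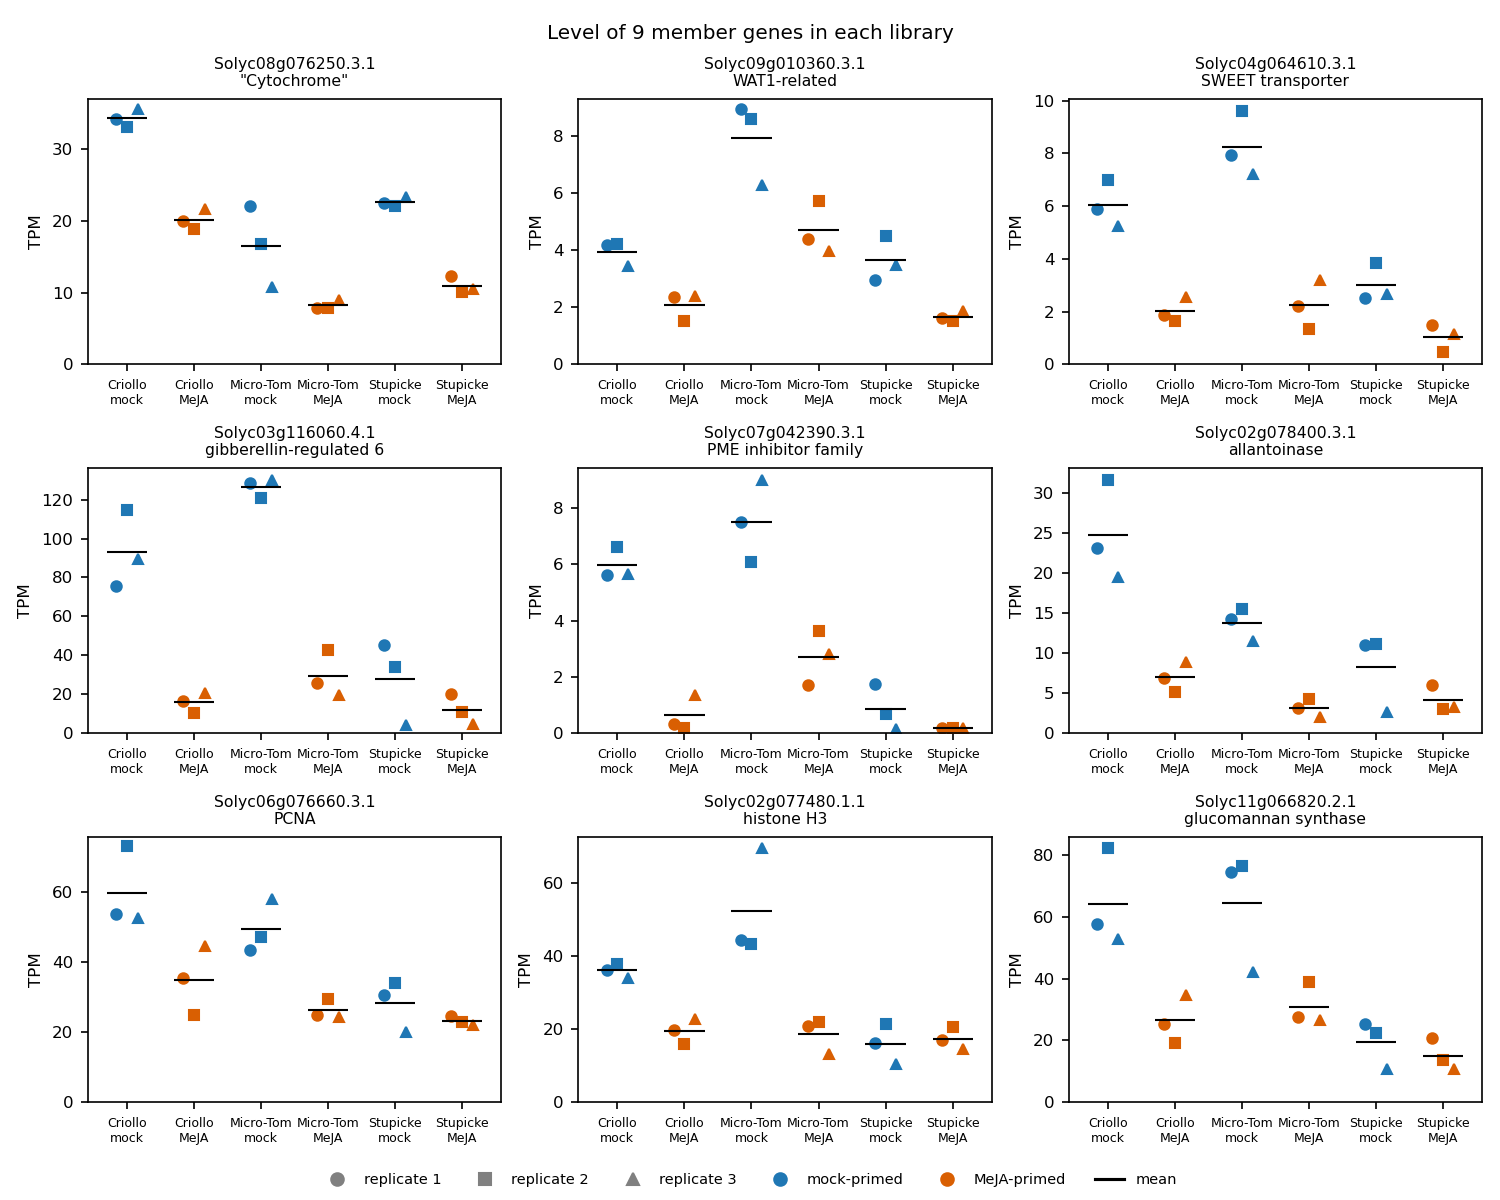
Level in TPM of 9 members in each library, by group; symbols give the replicate, colours the priming and lines the group mean (n = 3). Separation of mock and MeJA in Criollo and Micro-Tom was set by the rule; in Stupicke the cytochrome, WAT1-related and SWEET genes are separated, while in gibberellin-regulated protein 6, the PME (pectin methylesterase) inhibitor and allantoinase genes Stupicke mock replicate 3 lies with the MeJA libraries.

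Annotations could be matched for 107 of the 465 members, and 35 of these fell in the functional lists. The members in each list are to be set beside these 107 among all 2658 annotated genes. Over all 19914 genes tested in Stupicke, edgeR called 22 lower and 289 higher, and over 19510 genes DESeq2 called 42 lower and 415 higher. The annotated genes are those that the study's tables of MeJA effects and exudate proteins name, so that they were partly selected on these libraries and the counts per list are not independent evidence of a direction. Reads of histone, tubulin and gibberellin-regulated genes can be shared among near-identical copies, which makes their individual values uncertain.

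DNA replication and chromatin genes contributed 6 members of 17 annotated. PCNA (Solyc06g076660.3.1), the sliding clamp of DNA polymerase, had 53.6, 73.1 and 52.8 TPM in Criollo mock and 35.6, 25.1 and 44.6 TPM in Criollo MeJA. The Micro-Tom values were 43.5, 47.1 and 58.1 TPM in mock and 25, 29.5 and 24.3 TPM in MeJA. Its levels in Stupicke were 30.6, 34.2 and 20.2 TPM in mock and 24.7, 23 and 22.2 TPM in MeJA. The Stupicke groups overlapped through mock replicate 3 alone, and the log2 fold change was -0.24 (SE 0.25) with an adjusted p of 1.0 by edgeR. The small chain of ribonucleotide reductase (Solyc02g094160.1.1), which makes deoxynucleotides, had 18.2, 19.2 and 15.3 TPM in Stupicke mock and 18.3, 18.8 and 15.2 TPM in Stupicke MeJA, nearly equal in both. In Criollo it had 38.6, 44.3 and 33.6 TPM in mock and 21, 18.9 and 27.5 TPM in MeJA, and in Micro-Tom 33.5, 32.7 and 36.7 TPM in mock and 20.6, 24.3 and 21.5 TPM in MeJA. Its Stupicke mock level was thus near or below the MeJA level of the other genotypes.

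The remaining 4 members of that list were histones, the proteins that package new DNA. The histone H3 gene Solyc02g077480.1.1 had 36.2, 37.9 and 34.0 TPM in Criollo mock, 19.8, 15.9 and 22.8 TPM in Criollo MeJA, 44.4, 43.2 and 69.6 TPM in Micro-Tom mock and 20.8, 22.1 and 13.3 TPM in Micro-Tom MeJA. The Stupicke values were 16.3, 21.4 and 10.5 TPM in mock and 17.1, 20.5 and 14.5 TPM in MeJA, which overlapped throughout. The most abundant, the H2A gene Solyc11g073250.2.1, had 65.1, 68.4 and 50.9 TPM in Stupicke mock and 52.2, 56.5 and 52.3 TPM in Stupicke MeJA. The H4 gene Solyc05g054610.1.1 had 2.73 and 3.25 TPM in Stupicke mock replicates 1 and 2 and was listed at 0 in replicate 3. Over the 6 members the median log2 fold change in Stupicke was -0.19, or -0.31 without mock replicate 3. Of the 17 annotated genes, 0 were called in either direction in Stupicke by edgeR or by DESeq2, and 0 had an unadjusted p under 0.05.

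Cyclins and other cell division genes gave 4 members of 26 annotated, and 0 of the 26 were called in Stupicke by edgeR or DESeq2, with 1 lower at an unadjusted p under 0.05. A D-type cyclin (Solyc04g078470.3.1), of the class that drives entry into the cell cycle, had 5.64, 5.76 and 4.62 TPM in Criollo mock and 3.14, 2.58 and 4.27 TPM in Criollo MeJA. In Stupicke it had 2.49, 1.97 and 1.03 TPM in mock and 2.06, 1.19 and 2.17 TPM in MeJA, so that the groups overlapped. The A-type cyclins Solyc06g065680.3.1 and Solyc04g078310.3.1, a class active from replication to mitosis, had Stupicke mock means under 2 TPM. The fourth, Solyc03g006840.4.1, is annotated as an M-phase inducer phosphatase-like protein and had 22.6, 28.5 and 19.5 TPM in Criollo mock and 13.4, 8.33 and 14.4 TPM in Criollo MeJA. The Stupicke values were 5.78, 5.05 and 2.77 TPM in mock and 6.28, 4.95 and 4.46 TPM in MeJA, the MeJA mean being the higher one. The median log2 fold change of the 4 was -0.03 in Stupicke, close to that of all genes tested, and -0.24 without mock replicate 3. Among tubulins and microtubule-associated proteins, 3 of 38 annotated genes were members, with a median of -0.27 in Stupicke, and edgeR called 0 of the 38 lower (1 at an unadjusted p under 0.05, 0 by DESeq2) and 1 higher there.

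**Figure D4:**
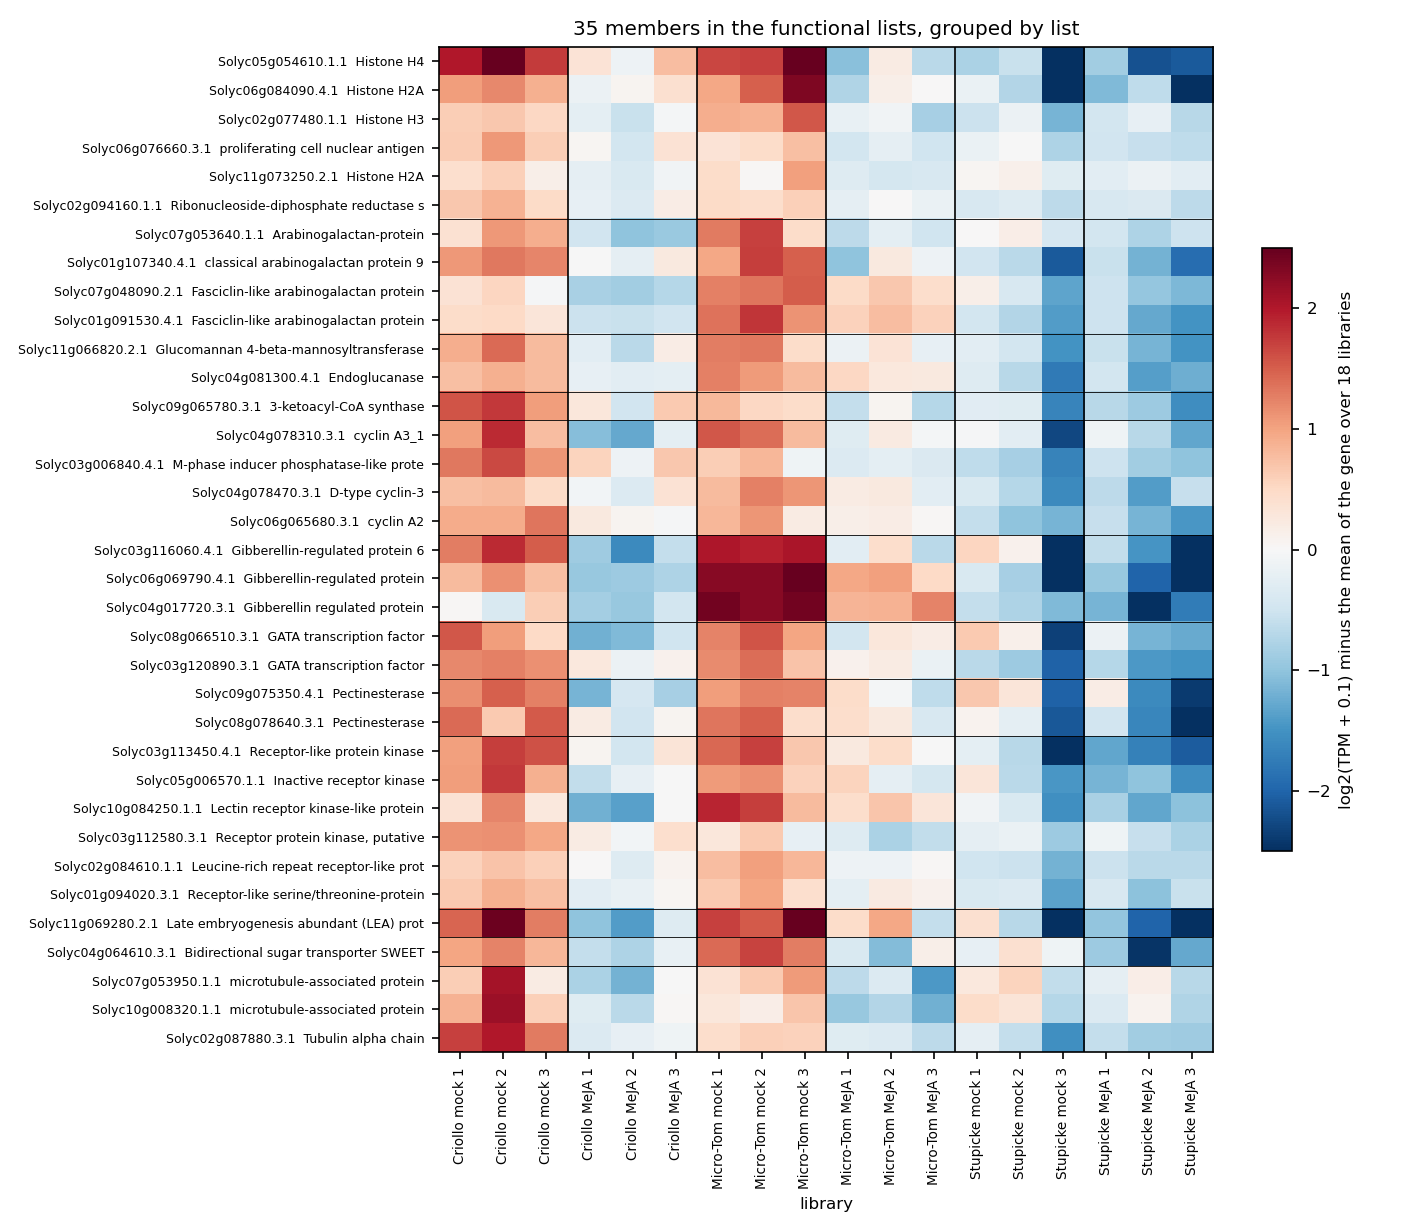
Level of the 35 members in the functional lists across the 18 libraries, as log2(TPM + 0.1) minus the mean of the gene over all libraries (red above, blue below), with thin lines between lists. Criollo and Micro-Tom mock libraries are mostly red and all Stupicke libraries mostly blue, with Stupicke mock replicate 3 among the deepest.

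Cell wall genes formed the next group. Arabinogalactan and fasciclin-like proteins, glycoproteins of the cell surface, gave 4 members of 7 annotated, with a median log2 fold change in Stupicke of -0.29 (-0.55 without mock replicate 3). The fasciclin-like gene Solyc01g091530.4.1 had 61.5, 63.4 and 54.9 TPM in Criollo mock, 31.0, 30.4 and 31.9 TPM in Criollo MeJA, 115, 155 and 97.7 TPM in Micro-Tom mock and 66.5, 76.5 and 66.6 TPM in Micro-Tom MeJA. Its levels in Stupicke were 32.5, 27.1 and 16.8 TPM in mock and 31.1, 18.4 and 15.9 TPM in MeJA, with overlapping groups. The arabinogalactan protein Solyc07g053640.1.1 had 4.06, 4.54 and 2.97 TPM in Stupicke mock and 2.93, 2.31 and 2.81 TPM in Stupicke MeJA. These groups did not overlap, but the difference was small, with a log2 fold change of -0.51 (SE 0.23) and an adjusted p of 0.62 by edgeR. Of the 7 annotated genes, 0 were called in Stupicke by edgeR or DESeq2, and 1 was lower at an unadjusted p under 0.05.

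Glucomannan 4-beta-mannosyltransferase (Solyc11g066820.2.1) builds the mannan backbone, and mannans are the main wall polymers of tomato endosperm. It had 57.7, 82.3 and 52.8 TPM in Criollo mock and 25.4, 19.2 and 34.8 TPM in Criollo MeJA. In Micro-Tom it had 74.5, 76.6 and 42.2 TPM in mock and 27.5, 38.9 and 26.5 TPM in MeJA. In Stupicke it had 25.3, 22.3 and 10.8 TPM in mock and 20.6, 13.6 and 10.7 TPM in MeJA, with a log2 fold change of -0.37 (SE 0.28) and an adjusted p of 1.0 by edgeR. It was 1 of 2 members among 12 annotated genes of cellulose, callose and hemicellulose synthesis, the other being an endoglucanase (Solyc04g081300.4.1). In that list edgeR called 1 gene lower and 5 higher in Stupicke, and neither member was among them. DESeq2 called 1 lower and 4 higher.

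Pectin-modifying genes gave 2 members of 6 annotated, both pectinesterases, enzymes that remove methyl groups from pectin. Solyc09g075350.4.1 had 2.63, 2.00 and 0.32 TPM in Stupicke mock and 1.83, 0.464 and 0.225 TPM in Stupicke MeJA. Solyc08g078640.3.1 had 1.58, 1.24 and 0.265 TPM in Stupicke mock and 1.04, 0.412 and 0.156 TPM in Stupicke MeJA. In each, mock replicate 3 lay among the MeJA values, and the median log2 fold change of the pair was -0.93, or -1.38 without that library. Of the 6 annotated genes, edgeR and DESeq2 each called 0 lower and 2 higher in Stupicke, and 0 were lower at an unadjusted p under 0.05. An invertase or pectin methylesterase inhibitor family gene, Solyc07g042390.3.1, had one of the deepest reductions of all members, with 5.62, 6.60 and 5.65 TPM in Criollo mock and 0.344, 0.182 and 1.38 TPM in Criollo MeJA. The Micro-Tom values were 7.5, 6.07 and 8.98 TPM in mock and 1.73, 3.61 and 2.80 TPM in MeJA. Its levels in Stupicke were 1.74, 0.674 and 0.17 TPM in mock and 0.175, 0.171 and 0.184 TPM in MeJA, with a log2 fold change of -2.20 (SE 0.92) and an adjusted p of 0.51 by edgeR. Its spread among the Stupicke mock libraries was thus wider than the difference between the group means.

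Receptor-like kinases, membrane proteins that perceive signals outside the cell, gave 6 members of 67 annotated. In Stupicke edgeR called 1 of the 67 lower and 4 higher, and DESeq2 called 2 lower and 9 higher. At an unadjusted p under 0.05 by edgeR, 4 were lower and 11 higher. The median log2 fold change of the 6 members was -0.29 in Stupicke and -0.57 without mock replicate 3. The most abundant, the leucine-rich repeat kinase PXL2 (Solyc02g084610.1.1), had 11.2, 10.8 and 6.98 TPM in Stupicke mock and 11, 9.96 and 9.94 TPM in Stupicke MeJA. Its groups overlapped in Stupicke, while in Criollo it had 23.7, 26.0 and 24 TPM in mock and 15.9, 12.8 and 17.0 TPM in MeJA. A pair of GATA transcription factors (Solyc03g120890.3.1 and Solyc08g066510.3.1) came from 16 annotated homeobox and growth-regulating factors, with a median of -0.38 in Stupicke. A 3-ketoacyl-CoA synthase (Solyc09g065780.3.1), which elongates fatty acids for cuticle and waxes, was the 1 member of 4 annotated cuticle genes. None of the lists for jasmonate response (17 annotated genes), heat shock proteins (23), auxin (21), ion channels and pumps (13), lipid transfer and GDSL lipases (15), expansins and xyloglucan hydrolases (3) and photosynthesis (7) held a member. These lists were matched by name patterns, and the auxin patterns do not cover the IAA-amido synthetase and the WAT1-related gene described above, which are members. In Stupicke, 14 of the 17 jasmonate response genes were called higher, against 289 of all 19914 genes tested, with a median log2 fold change of 3.54 over the list. These 17 genes are annotated here because the study's tables of MeJA effects or exudate proteins name them. Their calls, and the absence of members among them, are thus not independent evidence. Among 32 annotated genes of seed storage and late embryogenesis, 1 was a member, the LEA-related gene Solyc11g069280.2.1, which had 2.87, 5.84 and 2.54 TPM in Criollo mock and 0.442, 0.311 and 0.768 TPM in Criollo MeJA.

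The 8 members with the lowest mean ratio over Criollo and Micro-Tom were mostly genes of low level without an annotation here. The annotated ones were the inhibitor family gene described above and a glycosyltransferase, Solyc06g062330.3.1. The glycosyltransferase had 10.7, 10.5 and 8.96 TPM in Criollo mock and 1.01, 1.07 and 2.52 TPM in Criollo MeJA. In Micro-Tom it had 3.24, 2.24 and 3.71 TPM in mock and 1.54, 0.369 and 0.141 TPM in MeJA. The Stupicke values were 1.75, 2.32 and 0.608 TPM in mock and 0.576, 0.301 and 0.125 TPM in MeJA, without overlap, and a log2 fold change of -2.18 (SE 0.72) with an adjusted p of 0.24 by edgeR. Its MeJA/mock ratios, 0.153, 0.223 and 0.214 in Criollo, Micro-Tom and Stupicke, were alike in size, although only the Criollo and Micro-Tom ones were part of the choice. Solyc01g067870.3.1 had ratios of 0.115, 0.166 and 0.236 in the same order, with 8.75, 5.50 and 0.34 TPM in Stupicke mock and 1.97, 1.47 and 0 TPM in Stupicke MeJA, a log2 fold change of -2.03 (SE 0.88) and an adjusted p of 0.56 by edgeR. Solyc02g089580.3.1 had ratios of 0.156 in Criollo and 0.0625 in Micro-Tom but rested on 31 and 50 counts in the mock groups, and on 7 mock and 0 MeJA counts in Stupicke. Others of these 8 did not show such a difference in Stupicke: Solyc02g089350.3.1, at ratios of 0.235 and 0.123, had 8.04, 10.0 and 0.304 TPM in Stupicke mock and 7.18, 9.80 and 0.548 TPM in Stupicke MeJA, low in replicate 3 of both groups, and Solyc12g011023.1.1, at 0.235 and 0.14, had a Stupicke ratio of 1.28. Solyc01g095515.1.1 had ratios of 0.159 and 0.206, and 0.749 in Stupicke. The eighth, Solyc06g062930.1.1, had 4 Stupicke mock counts and 1 MeJA count and was 1 of the 2 members that were not tested, the other being Solyc00g047180.1.1.

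The 8 most abundant members included a glyoxalase-like domain gene (Solyc06g007610.2.1) and a glutamine synthetase (Solyc11g011380.2.1), the enzyme that assimilates ammonium, and 6 genes without an annotation here. Solyc04g080620.3.1 had 713, 788 and 771 TPM in Criollo mock and 295, 158 and 358 TPM in Criollo MeJA. The Micro-Tom values were 1577, 1691 and 1310 TPM in mock, and 469, 719 and 395 TPM in MeJA. In Stupicke it had 378, 243 and 21.8 TPM in mock and 123, 76.0 and 43.5 TPM in MeJA. The Stupicke mock libraries thus spanned a wider range than the means of the groups, and the log2 fold change of -1.38 (SE 0.60) had an adjusted p of 0.58 by edgeR. Without mock replicate 3 it was -1.91 with an adjusted p of 0.016. Solyc01g096450.4.1 had the same form, with 140, 104 and 12.3 TPM in Stupicke mock and 59.6, 21 and 18.0 TPM in Stupicke MeJA, and its log2 fold change was -1.36 (SE 0.57), at an adjusted p of 0.51 by edgeR, and -1.86, at 0.023, without that library. So did Solyc03g121900.1.1, the highest of all in Micro-Tom mock at 1827, 2069 and 1858 TPM, which had 218, 122 and 15.0 TPM in Stupicke mock and 89.4, 53.4 and 36.3 TPM in Stupicke MeJA, and its log2 fold change was -0.82 (SE 0.52), at an adjusted p of 1.0 by edgeR. Glutamine synthetase differed from these, with 141, 144 and 70.9 TPM in Stupicke mock and 116, 108 and 106 TPM in Stupicke MeJA. The glyoxalase-like gene had 138, 89.3 and 62.8 TPM in Stupicke mock and 98.6, 66.8 and 56.3 TPM in Stupicke MeJA, overlapping in both.

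Of the 19 members called in Stupicke without mock replicate 3, several carry an annotation, and those below were picked for mention after their values were seen. Allantoinase (Solyc02g078400.3.1), an enzyme of purine breakdown, had 11, 11.2 and 2.67 TPM in Stupicke mock and 5.99, 3.06 and 3.26 TPM in Stupicke MeJA. Its log2 fold change was -1.00 (SE 0.39) with an adjusted p of 0.43 by edgeR in all libraries, and -1.40 with an adjusted p of 0.023 without mock replicate 3. In Criollo it had 23.1, 31.6 and 19.4 TPM in mock and 6.93, 5.16 and 8.91 TPM in MeJA, and in Micro-Tom 14.3, 15.5 and 11.5 TPM in mock and 3.11, 4.24 and 2.08 TPM in MeJA. The remaining mock libraries of Stupicke were thus about as high as the Micro-Tom ones. Enolase (Solyc10g085550.3.1), of glycolysis, had 6.25, 4.38 and 1.03 TPM in Stupicke mock and 3.26, 2.11 and 1.49 TPM in Stupicke MeJA, with -0.73 (SE 0.41; adjusted p 0.88 by edgeR) on the log2 scale in all libraries and -1.17 (adjusted p 0.046) without that library. Long-chain acyl-CoA synthetase 4 (Solyc01g109180.4.1), which activates fatty acids, went from an adjusted p of 0.58 at -0.77 (SE 0.34) to 0.033 at -1.14 by edgeR. For the multicopper oxidase LPR1 (Solyc05g008300.3.1), known in Arabidopsis for the root response to low phosphate, the values were 0.12 at -0.59 (SE 0.17) and 0.044 at -0.74 by edgeR. For the MIEL1-like E3 ubiquitin ligase (Solyc01g067360.3.1) they were 0.56 at -0.38 (SE 0.16) and 0.027 at -0.59. Of these 5 genes, 4 had their lowest Stupicke value in mock replicate 3, the exception being LPR1. Of the members without an annotation, Solyc03g111730.3.1 had the smallest adjusted p among those called only without that library, with 68.6, 50.1 and 8.84 TPM in Stupicke mock and 14.9, 8.2 and 6.12 TPM in Stupicke MeJA. Its log2 fold change was -2.10 (SE 0.54) with an adjusted p of 0.077 by edgeR in all libraries, and -2.57 with an adjusted p of 0.0036 without mock replicate 3.

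Among annotated members outside the lists, a further pair with roles in seeds is described, picked after the values were seen. The abscisic acid receptor PYL3 (Solyc08g065410.3.1) belongs to the family that perceives the hormone of seed dormancy. It had 189, 220 and 157 TPM in Criollo mock and 93.8, 49.5 and 142 TPM in Criollo MeJA, 107, 97.8 and 88.4 TPM in Micro-Tom mock and 40.5, 38.4 and 20.2 TPM in Micro-Tom MeJA. The Stupicke values were 69.0, 57.8 and 18.3 TPM in mock and 30.8, 36.6 and 28.6 TPM in MeJA, with the lowest value again in mock replicate 3. Subunit 4 of the origin recognition complex (Solyc05g008540.3.1), which marks the start sites of replication, had 6.45, 8.37 and 5.66 TPM in Criollo mock and 2.94, 2.24 and 3.59 TPM in Criollo MeJA. Its levels in Stupicke were 2.27, 2.70 and 1.66 TPM in mock and 1.64, 1.23 and 2.13 TPM in MeJA, and the groups overlapped.

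At the other end, the 5 members with the largest positive log2 fold changes in Stupicke ran from 0.70 to 1.37, and none was called. Solyc10g080360.1.1 had 8.51, 8.64 and 2.01 TPM in Stupicke mock and 28.2, 9.20 and 9.28 TPM in Stupicke MeJA. The groups did not overlap, but MeJA replicate 1 was far above the others, and the log2 fold change of 1.37 (SE 0.84) had an adjusted p of 0.96 by edgeR. Solyc02g024010.1.1 had 3.06, 1.35 and 1.76 TPM in Stupicke mock and 3.44, 3.15 and 3.64 TPM in Stupicke MeJA, with a log2 fold change of 0.81 (SE 0.42). Solyc03g117500.1.1 had 1.29, 1.25 and 0.982 TPM in mock and 2.48, 1.72 and 1.37 TPM in MeJA, with 0.70 (SE 0.38). These too had no overlap, with MeJA on the higher side, at adjusted p of 0.82 and 0.92 by edgeR. The other two, Solyc10g047240.2.1 and Solyc10g074540.1.1, had Stupicke mock means under 1 TPM.

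The members were spread over all 12 chromosomes, with 1 on unplaced sequence. On chromosome 6 they made up 3.54% of the genes with a mock mean of at least 2 TPM in Criollo and Micro-Tom, and on chromosome 5 they made up 2.01%, the other chromosomes lying between.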

How the data were processed

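Seed RNA from 18 libraries was enriched for poly(A) and sequenced as paired reads on a BGISEQ-500 instrument. The authors quantified the reads with Salmon (version 1.2 in the submitters' notes) against the ITAG4.0 transcripts of the SL4.0 assembly. The estimated counts (expected counts) were deposited by the authors without normalization, and the TPM values were deposited as scaled by the authors within each library. TPM sets a share of the library, so that a rise of abundant transcripts lowers the values of others.

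Here, members were found on TPM group means. The expected counts were rounded to whole numbers and tested with edgeR 4.0.16 (R 4.3.3): filterByExpr, TMM factors, 1 mean per group over all 18 libraries, the quasi-likelihood test, and Benjamini-Hochberg adjustment with a threshold of 0.05. Alternatives used DESeq2 1.42.0, limma 3.58.1 and each library left out in turn. Library totals ranged from 18807931 to 20560389, with a median of 20195370, and levels near 0 rest on few counts.

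The members and lists were chosen with earlier results of these data known. Genes were named by rule: the 8 with the lowest mean log2 ratio over Criollo and Micro-Tom, the 8 with the highest level, every member called in Stupicke, up to 3 per list by mock level, the genes nearest the ratio threshold, and the 5 with the largest positive fold change in Stupicke. Others are said to have been picked after their values were seen. Annotations came from the study's supplementary tables, which cover 2658 genes. Among 20 lists of name patterns, 1 match (an alpha-1,4-glucan-protein synthase in the actin list) matched only within another word and was left out. Markers of other tissues that had been listed (small subunit of RuBisCO, polygalacturonase-2 and phytoene synthase 1) matched 0 annotated genes. Promoter and protein sequences were not used here.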

Additional observations from a re-analysis of the deposited data

How the results depend on the processing

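The count of 3 members called lower in Stupicke was 6 with DESeq2 and ranged from 2 to 19 over the fits that omitted 1 library. It was 31 when replicate 3 of both Stupicke mock and Micro-Tom mock was left out, 52 with DESeq2 without Stupicke mock replicate 3, and 31 with limma voom and sample quality weights, all 3 chosen after seeing the data. Those fits called 0.51%, 0.681% and 1.01% of all genes lower, against 6.7%, 11.2% and 6.7% of the members. The median log2 fold change of -0.30 was then -0.64, -0.63 and -0.55, and it ranged from -0.62 to -0.04 with single libraries left out; the number of negative members ranged from 254 to 425. The 465 members became 301 with a minimum of 5 TPM, 167 with a ratio of at most 0.5, 699 when replicates could overlap, and 410 to 686 with single libraries left out. The largest of these came without Micro-Tom mock replicate 3, when 444 members were kept and the median in Stupicke was -0.23. With TMM-normalized CPM, 297 of the 465 were kept, with a median of -0.39. The 12 members meeting the rule in Stupicke became 7 at a ratio of at most 0.5 and 159 without Stupicke mock replicate 3 (chosen after seeing the data). No fold change named for a gene in Stupicke changed direction under any alternative. Calls of the SWEET gene Solyc04g064610.3.1 were lost in 20 of 29 alternatives.

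The labels do not say whether replicate numbers pair the samples. The correlation of deviations between same-numbered mock and MeJA libraries was 0.349, -0.005 and 0.228 in Stupicke, -0.051, -0.391 and -0.41 in Criollo and 0.02, 0.079 and -0.046 in Micro-Tom. In Stupicke the median member level fell from replicate 1 to replicate 3 in mock and in MeJA alike, and a pairing within Stupicke alone was not tested. With a replicate block shared by all genotypes, 2 members (0.432%) were called lower, against 0.0753% of all genes tested. In that fit 375 members (81.0%) were negative, against 51.9%, and the median was -0.30. With 3 libraries per group and a mock level under 2 TPM for many members in Stupicke, the failure of a gene to pass the test there does not show that MeJA left it unaltered.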
